A study of Mus musculus with 8 samples.

Results

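A set of 10 genes known for imprinting and for roles in growth, *H19*, *Meg3*, *Rian*, *Dlk1*, *Peg3*, *Mest*, *Grb10*, *Plagl1*, *Ndn* and *Snrpn*, was followed in RNAseq of primary lung fibroblasts (pFBs) of mice. They were taken by symbol and make up 10 of the 54532 entries of the gene count table. All 10 had counts in every library, and all 10 were among the 14150 genes that passed the filter on low counts. The 8 libraries were 4 from wild type mice (WT, called WT1 to WT4) and 4 from mice homozygous for human IGFBP5 (HOMO, called HOMO1 to HOMO4), all on the strain background C57/black and, by the study's methods, all from female mice. The HOMO mice carry hIGFBP5, a human protein that binds insulin-like growth factors, as a CRISPR/Cas9 knock-in that is expressed in all tissues from the promoter of Ef1a1. The cells grew out of minced lung on culture dishes in serum, received no treatment, and were used after several passages. The age of the mice was not given in the sources used here. The study speaks of more than 1 mouse of a genotype, but how many mice or cultures stand behind the 4 libraries of a genotype, and which, was not given. The p-values below therefore measure the spread between libraries, which may be technical in part.

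An imprinted gene is transcribed mainly from the copy of 1 parent, and for most such genes the copy used is set by DNA methylation laid down in the germ line. Imprinted genes lie in clusters that share control regions. Many of the genes expressed from the paternal copy are known to promote growth before birth, and several of those expressed from the maternal copy restrain it. The fetal growth factor *Igf2* and its neighbour *H19* are the classic pair, and several genes of the group are known to be high in fetal tissue and to decline after birth. The counts carry no information on the parental copy, so they give total levels and not imprinting itself. In these bulk samples, fewer cells that express a gene and less RNA per cell cannot be told apart.

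The genes lie on 5 chromosomes, in positions given for GRCm38 (mm10). *Dlk1* (109452823 to 109463336), *Meg3* (109541001 to 109571726) and *Rian* (109603940 to 109661716) follow each other on the plus strand of chromosome 12. On chromosome 7, *Peg3* (6703892 to 6730431), *Snrpn* (59982495 to 60140219) and *H19* (142575529 to 142578143) are on the minus strand and *Ndn* (62346569 to 62350262) is on the plus strand. *Ndn* and *Snrpn* belong to the same imprinted cluster, whose paternal copy is lost or silent in human Prader-Willi syndrome. *Mest* (chromosome 6, 30723547 to 30748465) and *Plagl1* (chromosome 10, 13060504 to 13131694) are on the plus strand, and *Grb10* (chromosome 11, 11930508 to 12038683) is on the minus strand.

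The promoters of 3 genes are shown because these genes gave the clearest separation of HOMO from WT. Each line holds the 300 bases from 250 before to 50 after a transcription start in RefSeq (GRCm38.p6), read 5′ to 3′ on the strand of the gene. For *Snrpn*, which has 4 such starts, the window nearest to the 3′ end of the gene is printed. Capitals mark GCATGCG or its reverse complement CGCATGC, the core of the motif bound by NRF1, which was searched on both strands after the letters had been seen. In both genes that hold it, the 2 orientations overlap in 8 bases.
*Snrpn*, chr7:60005150-60005449, minus strand: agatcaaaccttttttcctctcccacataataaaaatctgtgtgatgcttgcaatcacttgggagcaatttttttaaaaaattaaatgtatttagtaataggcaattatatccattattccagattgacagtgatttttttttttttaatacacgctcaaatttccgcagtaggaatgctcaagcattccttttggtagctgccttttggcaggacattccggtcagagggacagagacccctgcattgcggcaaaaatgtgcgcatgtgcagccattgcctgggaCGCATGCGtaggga
*Ndn*, chr7:62348027-62348326, plus strand: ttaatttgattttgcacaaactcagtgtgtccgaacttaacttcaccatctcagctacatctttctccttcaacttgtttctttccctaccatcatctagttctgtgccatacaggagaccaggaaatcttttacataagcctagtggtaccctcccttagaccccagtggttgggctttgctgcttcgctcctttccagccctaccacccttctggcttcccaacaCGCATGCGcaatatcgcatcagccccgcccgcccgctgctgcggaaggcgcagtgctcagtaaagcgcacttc
*Dlk1*, chr12:109452573-109452872, plus strand: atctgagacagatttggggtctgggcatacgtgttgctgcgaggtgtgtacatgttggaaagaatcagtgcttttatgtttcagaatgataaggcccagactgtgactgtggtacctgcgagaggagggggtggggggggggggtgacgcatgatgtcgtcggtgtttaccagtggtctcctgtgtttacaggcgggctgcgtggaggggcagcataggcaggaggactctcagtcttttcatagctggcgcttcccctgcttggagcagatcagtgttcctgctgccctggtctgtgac
The motif was found in 3.58% of the 32851 promoter windows of the same length and in a window of 4.01% of genes. Among the 16 windows that RefSeq gave for 9 of the 10 genes, 5 held it, namely all 4 of *Snrpn* and the 1 of *Ndn*. By gene these are 2 of 9, and the *Snrpn* windows not shown closely resemble each other around the motif. Since the motif was searched after the letters had been seen, these shares are no test of it. *Dlk1* had no match, which says only that these letters are not in its window. No entry was matched for *H19*. The windows also differed in CpG, the dinucleotide that carries methylation. There were 7 in the *Snrpn* window shown, 11 in that of *Ndn* and 9 in that of *Dlk1*, against a median of 7 over all windows. Of the windows of *Grb10*, 1 held 45 CpG, a number reached by 1.93% of all windows.

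Some of these transcripts also carry microRNAs. The mature 5p arm of 1 hairpin in each of 4 genes is shown, with the seed (bases 2 to 8) in capitals, to tell apart what the host transcripts can give rise to.
mmu-miR-675-5p, from *H19*: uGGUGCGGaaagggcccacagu
mmu-miR-770-5p, from *Meg3*: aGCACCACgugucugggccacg
mmu-miR-341-5p, from *Rian*: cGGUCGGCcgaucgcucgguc
mmu-miR-335-5p, from *Mest*: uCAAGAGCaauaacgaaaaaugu
Each of these has a seed of its own. The hairpins of miR-675 and miR-770 overlap exons of *H19* and *Meg3*. The libraries were made from poly-A selected RNA and did not measure mature microRNAs, so only the host transcripts are described.

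The libraries held between 17236521 and 31987790 counts, and 3 counts corresponded to between 0.0908 and 0.172 CPM, counting error only. CPM here are counts scaled to library sizes that were adjusted by TMM. Several libraries stood apart or close together. The pairs WT1 with WT2, HOMO1 with HOMO2, and HOMO3 with HOMO4 varied by only 4.72% to 7.64% (biological coefficient of variation), against 30.0% to 55.7% for the other pairs of a genotype. Differences within these close pairs still exceeded sampling noise (chi-square per gene 4.08 to 8.40). Repeat libraries of 1 culture can also differ by that much, so this does not show that the pairs are separate cultures. They were kept as separate libraries as labelled, although the 8 libraries hold only 5 clearly distinct profiles, and the results with the pairs summed are given at the end. The fibroblast markers were abundant in every library, with a sum over 10 genes of 12938.5 to 16621.9 CPM in WT and 14004.6 to 24384.8 CPM in HOMO. The 6 macrophage and leukocyte markers were all detected in every library and summed to 1910.5 CPM in WT3 and 1111.7 CPM in WT4, mostly *Lyz2*, against at most 182.2 CPM in the other 6 libraries. The sum over 6 proliferation markers was high in WT1, WT2, HOMO3 and HOMO4 (678.4 to 992.0 CPM) and low in WT3, WT4, HOMO1 and HOMO2 (57.5 to 145.7 CPM). The 6 smooth muscle and pericyte markers summed to 773.7 to 2707.5 CPM in WT and 199.3 to 1452.6 CPM in HOMO, and the 4 mesothelial markers to 21.3 to 152.1 CPM and 90.1 to 129.4 CPM. The 6 epithelial markers were low but did not overlap between genotypes, with sums of 0.0574 to 0.542 CPM in WT and 1.34 to 13.6 CPM in HOMO. The sums of 4 glial markers were 1.49 to 2.40 CPM and 2.36 to 3.60 CPM, those of 5 endothelial markers 1.33 to 4.26 CPM and 1.43 to 4.11 CPM, and those of 5 skeletal myogenic markers at most 0.178 CPM. By the criteria for DEGs given below, *Cdh1* (log2FC 2.77), the 1 tested epithelial marker, and *Wt1* (3.36), 1 of 4 tested mesothelial markers, were called up in HOMO. *Pdgfrb* (−0.97) and *Vim* (−0.65) were called down among the 10 fibroblast markers, and *Rgs5* (−5.20) among the 6 smooth muscle and pericyte markers, while none of the 6 macrophage and leukocyte and 6 proliferation markers was called. The part of these markers in the results below was not tested. Mouse *Igfbp5* was measured at 7.31, 9.65, 409.1 and 4.34 CPM in WT1 to WT4 and at 1.07 to 2.86 CPM in HOMO. By the same criteria it was called down in HOMO (log2FC −5.97, edgeR adjusted p = 0.0469), with WT3 far above the rest. The study instead describes mouse *Igfbp5* as undetectable in both genotypes and its mRNA as not affected by hIGFBP5. The human transgene was not analysed here.

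HOMO was compared with WT to ask whether expression of hIGFBP5 goes with another level of these genes. *Dlk1* was upregulated and *Snrpn* downregulated in HOMO pFBs, and the other 8 genes were not called as DEGs. A DEG had to pass 0.05 in edgeR's quasi-likelihood F test, adjusted by Benjamini-Hochberg over all 14150 tested genes, and to change by more than 0.6 in log2 fold change (log2FC, HOMO minus WT) in either direction. The 2 calls among 10 genes stand against 12.1% of all tested genes, with 1 up against 5.94% and 1 down against 6.18%. Among 10 genes a single call moves the share by 10 percentage points, so 20% is not set apart from that background. The CPM of the genotypes did not overlap for 3 of the 10 genes, *Dlk1*, *Ndn* and *Snrpn*, against 27.3% of all tested genes. The log2FC was negative for 8 of the 10, against 7457 of all 14150 tested genes. Its median was −0.71, against −0.04 over all tested genes. Without WT3 and WT4, an alternative chosen after seeing the data, *Peg3* (0.12) and *Mest* (0.65) turned above 0 and *Meg3* (−0.22) below. The values of *Grb10*, *Plagl1*, *Ndn* and *Snrpn* came nearer to 0 in it, and those of *H19* and *Rian* moved farther below.

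**Figure D1:**
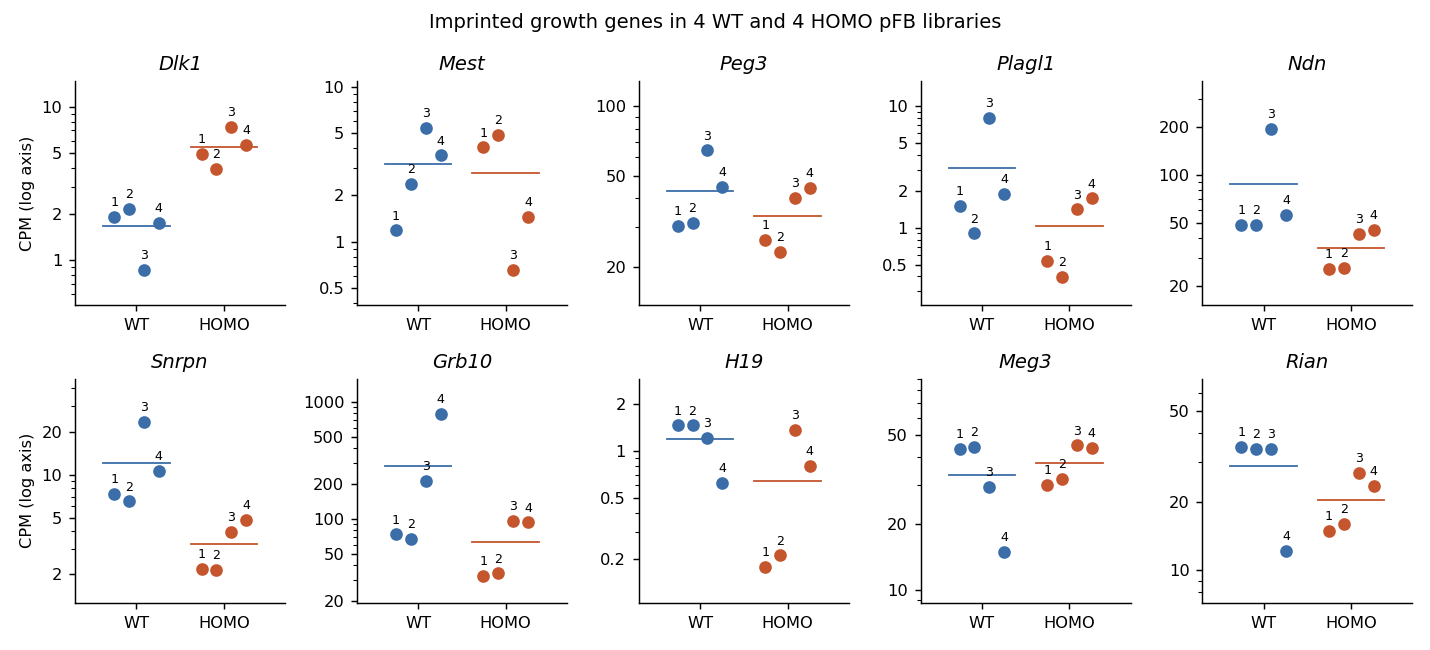
CPM (log axis) of the 10 imprinted growth genes in each library, with WT in blue and HOMO in orange, the replicate number above each point and a line at the mean of the genotype. *Dlk1* sits between 3.93 and 7.35 CPM in HOMO and at 2.14 CPM or below in WT, while *Grb10* reaches 788.4 CPM in WT4 alone.

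Per length, *Grb10* and *Ndn* had the highest levels. On the scale of RPKM (CPM per kilobase of all annotated exons), the means over the 8 libraries were 19.2 for *Grb10* and 16.5 for *Ndn*, followed by 3.53 for *Snrpn*, 2.86 for *Peg3*, 1.96 for *Meg3* and 1.35 for *Rian*. *Mest* (0.75), *Dlk1* (0.63), *H19* (0.371) and *Plagl1* (0.264) had low levels on the same scale. The level of a gene in its highest library was between 2.76 times (*Peg3*) and 24.3 times (*Grb10*) that in its lowest, and the ranges of all 9 pairs of neighbours in this order overlapped. *Grb10* was above *Ndn* in 1 library, WT4, and below it in the others, while *Ndn* was above *Snrpn* in all 8.

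*Dlk1* encodes a membrane protein with EGF-like repeats that is known to hold back the differentiation of fat precursors and is transcribed from the paternal copy. Its counts in WT1 to WT4 were 34, 50, 15 and 45, against 110, 130, 145 and 113 in HOMO1 to HOMO4. In CPM these were 1.91, 2.14, 0.861 and 1.74 in WT and 4.90, 3.93, 7.35 and 5.67 in HOMO. Every HOMO library was above every WT library, with WT3 lowest and HOMO3 highest. The WT mean was 1.67 ± 0.561 CPM (SD, n = 4) and the HOMO mean 5.46 ± 1.44 CPM (SD, n = 4), a 3.26-fold difference (log2FC 1.71, SE 0.35, adjusted p = 0.0182 by edgeR). The tested genes of chromosome 12 had a median log2FC of 0.24. With an offset for this shift in each library, the log2FC of *Dlk1* was 1.39 (edgeR adjusted p = 0.0440). The call was lost without HOMO1 (edgeR adjusted p = 0.0567) and without HOMO3 (0.0508), and the log2FC was 1.49 to 1.85 with any 1 library left out.

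*Snrpn* encodes SmN, a protein of the spliceosome, and is expressed from the paternal copy. Its level was 7.31, 6.48, 23.4 and 10.6 CPM in WT1 to WT4 and 2.18, 2.15, 3.95 and 4.81 CPM in HOMO1 to HOMO4. All HOMO libraries were below all WT libraries, and WT3 was the highest. The WT mean was 12 ± 7.85 CPM (SD, n = 4) and the HOMO mean 3.27 ± 1.33 CPM (SD, n = 4), which made *Snrpn* 3.65-fold lower in HOMO (log2FC −1.87, SE 0.48, adjusted p = 0.0382 by edgeR). The tested genes of chromosome 7 had a median log2FC of −0.29, and with an offset for this shift *Snrpn* stood at −1.59 (edgeR adjusted p = 0.0376). The call was lost when WT4 or any 1 of the HOMO libraries was left out, with edgeR adjusted p of 0.0522 to 0.118. Without WT3 the log2FC was −1.32 (edgeR adjusted p = 0.0400). Without WT3 and WT4, an alternative chosen after seeing the data, it was −1.08 (edgeR adjusted p = 0.0624).

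The counts of *Snrpn* are uncertain in part, since 27.3% of its exon bases also belong to the predicted gene *Gm38393*, 10% to *Snurf* and 6.86% to the pseudogene *Gm18908*. *Snurf*, made from the same transcript as SmN, was listed with 0 counts in every library. Since 100% of its exon bases also belong to *Snrpn* and to *Gm38393*, these counts do not show that *Snurf* is not expressed. WT1 to WT4 had 61, 63, 3 and 56 counts of *Gm38393*, and HOMO1 to HOMO4 had 33, 45, 50 and 46. It was thus lowest in WT3, the library in which *Snrpn* was highest, with 408 counts against 130 to 274 in the other WT libraries. The close relative *Snrpb* was far more abundant, at 2664 to 4100 counts.

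*Ndn* encodes necdin, a protein of the MAGE family that is known to restrain the cell cycle, and is also paternally expressed. It was measured at 48.3, 48.4, 195.6 and 55.9 CPM in WT1 to WT4 and at 25.6, 26.1, 42.2 and 44.8 CPM in HOMO1 to HOMO4. The genotypes did not overlap, but the gap between 44.8 and 48.3 CPM was small and WT3 lay far above the rest. *Ndn* was not called, with a log2FC of −1.33 (SE 0.49, adjusted p = 0.104 by edgeR), and the value was −0.56 without WT3 (edgeR adjusted p = 0.127). With the chromosome offset the log2FC was −1.02 (edgeR adjusted p = 0.126). In DESeq2 *Ndn* was called (adjusted p = 0.0384).

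None of the 5 other tested genes of the cluster of *Ndn* and *Snrpn* was called. *Peg12* (log2FC −1.01, edgeR adjusted p = 0.114) and *Atp10a* (−0.77, 0.084) went in the direction of *Ndn* and *Snrpn*. *Ube3a* (0.24, 0.224) and *Mkrn3* (0.02, 0.984) did not. *Snhg14*, a long noncoding RNA that runs against *Ube3a*, was at 3.33 to 4.53 CPM in WT and 2.36 to 4.51 CPM in HOMO (log2FC −0.15, SE 0.28, adjusted p = 0.752 by edgeR). *Magel2*, a relative of *Ndn*, was listed with 0 counts in every library.

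*Peg3*, a zinc finger protein from the paternal copy, had 30.3, 31.3, 64.3 and 44.7 CPM in WT1 to WT4 and 26.4, 23.3, 39.9 and 44.3 CPM in HOMO1 to HOMO4. WT3 was again highest, and the genotypes overlapped. *Peg3* was not called, with a log2FC of −0.35 (SE 0.30, adjusted p = 0.456 by edgeR), and the sign turned (0.12) without WT3 and WT4. With the chromosome offset the log2FC was −0.11 (edgeR adjusted p = 0.792).

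*Plagl1*, a zinc finger transcription factor known to arrest the cell cycle and to act on other imprinted genes, had the lowest level per length. It was measured at 1.52, 0.901, 8.09 and 1.90 CPM in WT1 to WT4 and at 0.535, 0.393, 1.42 and 1.75 CPM in HOMO1 to HOMO4. WT3 was far above the other 7 libraries, and the genotypes overlapped. The log2FC of −1.60 (SE 0.78, adjusted p = 0.193 by edgeR) was −0.51 without WT3.

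*Mest*, which encodes a protein of the hydrolase fold and is paternally expressed, split the libraries within both genotypes. Its level was 1.18, 2.36, 5.45 and 3.60 CPM in WT1 to WT4 and 4.06, 4.90, 0.659 and 1.45 CPM in HOMO1 to HOMO4. The lowest values, 0.659 to 2.36 CPM, were those of WT1, WT2, HOMO3 and HOMO4, the libraries with the high proliferation markers. WT3, WT4, HOMO1 and HOMO2, where these markers were low, had 3.60 to 5.45 CPM. The part of proliferation in this split was not tested. Between genotypes the log2FC was −0.18 (SE 0.66, adjusted p = 0.883 by edgeR), and it turned to 0.22 without WT3, 0.15 without HOMO3, 0.06 without HOMO4 and 0.65 without WT3 and WT4. *Mest* shares 23.1% of its exon bases with *Copg2* on the other strand, and the strand setting of the counting is not given in the sources used here. *Copg2* itself was at 40.8 to 76.0 CPM (log2FC −0.16, SE 0.21, adjusted p = 0.633 by edgeR).

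*Grb10*, an adaptor that binds the insulin and IGF1 receptors and dampens their signal, is maternally expressed in most tissues and was the gene with the largest spread. It was measured at 73.7, 67.2, 212.1 and 788.4 CPM in WT1 to WT4 and at 32.5, 34.2, 96.0 and 93.1 CPM in HOMO1 to HOMO4. WT4 was far above every other library, and HOMO3 and HOMO4 were above WT1 and WT2. The WT mean was 285.4 ± 342.0 CPM (SD, n = 4) and the HOMO mean 64.0 ± 35.4 CPM (SD, n = 4), giving a log2FC of −2.16 (SE 0.83, adjusted p = 0.113 by edgeR). It was −0.88 without WT4 and −0.14 without WT3 and WT4. DESeq2 called *Grb10* (adjusted p = 0.0199). The genes whose log2 CPM followed that of *Grb10* most closely over the 8 libraries were *Ahdc1* (Pearson r 0.993), *Fgf10* (0.991), *Cat* (0.990), *Col4a2* (0.986) and *Tmem268* (0.985), chosen among all tested genes for this likeness.

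**Figure D2:**
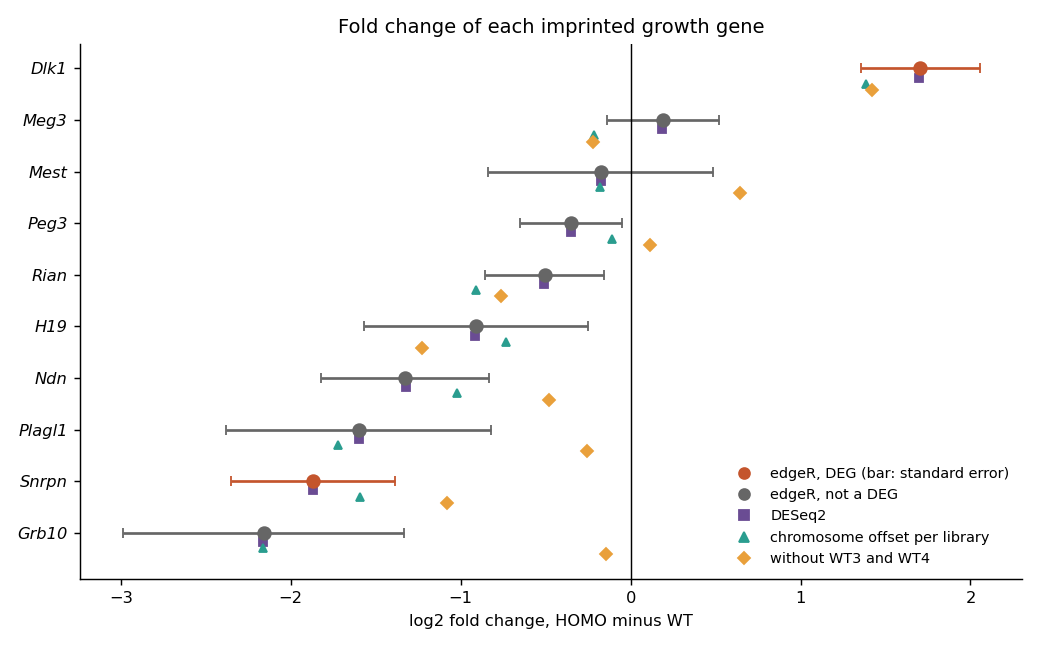
Log2FC (HOMO minus WT) of each gene in edgeR with its standard error as a bar, and the same value in DESeq2, with an offset per library and chromosome, and without WT3 and WT4. *Dlk1* (1.71) and *Snrpn* (−1.87) are the DEGs, and *Grb10* moves from −2.16 to −0.14 when WT3 and WT4 are left out.

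The noncoding RNAs came next. *H19* RNA, one of the most abundant transcripts of the fetus and transcribed from the maternal copy, was close to the lower limit of detection. WT1 to WT4 had 26, 34, 21 and 16 counts of it and HOMO1 to HOMO4 had 4, 7, 27 and 16, or 0.619 to 1.46 CPM in WT and 0.178 to 1.37 CPM in HOMO. HOMO1 and HOMO2 were lowest, and HOMO3 and HOMO4 lay within the WT range. Its log2FC was −0.91 (SE 0.66, adjusted p = 0.372 by edgeR), and it lay between −0.59 without HOMO1 and −1.59 without HOMO3 (edgeR adjusted p = 0.619 and 0.157). In limma-voom, with weights for library quality, *H19* was called (log2FC −1.32, adjusted p = 0.0493).

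*Igf2*, which shares its enhancers with *H19* and is read from the paternal copy, varied more. It was measured at 7.14, 9.18, 0.172 and 21.5 CPM in WT1 to WT4 and at 2.85, 2.30, 0.608 and 1.20 CPM in HOMO1 to HOMO4. WT3, with 3 counts, was the lowest of all and WT4 the highest. The log2FC of −2.44 (SE 1.01, adjusted p = 0.136 by edgeR) was no call, but it was −2.85 with an edgeR adjusted p of 0.0176 without WT3, and DESeq2 called it (adjusted p = 0.0338). Leaving out WT4 instead gave −1.65 (edgeR adjusted p = 0.283). Limma-voom called it at −2.69 (adjusted p = 0.00451), and without both WT3 and WT4 it was called in edgeR at −2.21 (adjusted p = 0.0210). Of the exon bases of *Igf2*, 62.8% are shared with the predicted gene *Gm49394*, so its counts are uncertain. *Igf2r*, the receptor that removes the IGF2 protein, was at 252.4 to 292.8 CPM in WT and 171.9 to 260.1 CPM in HOMO (log2FC −0.30, SE 0.16, adjusted p = 0.226 by edgeR).

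*Meg3* and *Rian* are long noncoding RNAs transcribed from the maternal copy of the *Dlk1*-*Dio3* region, *Rian* being the host of many small nucleolar RNAs. *Meg3* was measured at 43.6, 44.4, 29.3 and 14.9 CPM in WT1 to WT4 and at 30.0, 31.7, 45.1 and 44.0 CPM in HOMO1 to HOMO4. The 4 highest values, 43.6 to 45.1 CPM, were those of WT1, WT2, HOMO3 and HOMO4, the libraries with the high proliferation markers. Its log2FC was 0.19 (SE 0.33, adjusted p = 0.727 by edgeR) and turned to −0.21 with the chromosome offset and −0.053 without WT4.

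*Rian* was measured at 34.8, 34.1, 34.3 and 12.2 CPM in WT1 to WT4 and at 14.9, 16.0, 26.9 and 23.4 CPM in HOMO1 to HOMO4. WT1 to WT3 were above all HOMO libraries and WT4 was below them. *Rian* was not called, with a log2FC of −0.50 (SE 0.35, adjusted p = 0.350 by edgeR). It stood at −0.76 without WT4 (edgeR adjusted p = 0.0612) and at −0.91 with the chromosome offset (0.205). Limma-voom called it (log2FC −0.68, adjusted p = 0.0149).

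The genes of the *Dlk1*-*Dio3* region did not move together in WT4. As log2 deviations from the mean of the 8 libraries, the median of 501 tested genes of chromosome 12 was 0.33 in WT4 and −0.34 to −0.27 in WT1 to WT3. Against this, *Meg3* was at −1.17 in WT4, *Rian* at −0.91 and *Mirg*, the microRNA host further along the same strand, at −1.89. *Dio3*, the paternally expressed gene at the other end of the region that encodes an enzyme inactivating thyroid hormone, was at 1.98 in the same library. *Dlk1*, also paternally expressed, was at −0.72 there. This was within its range in the other WT libraries (−0.59, −0.43 and −1.66 in WT1 to WT3), so *Dlk1* did not stand apart in WT4. In CPM, *Mirg* was at 1.86, 1.24, 1.21 and 0.232 in WT1 to WT4, and *Dio3* was at 1.46, 1.20, 4.88 and 14.8. In HOMO, *Mirg* was at 0.758 to 1.57 CPM and *Dio3* at 2.94 to 5.08 CPM. Neither was called (log2FC 0.26 and −0.45, edgeR adjusted p = 0.781 and 0.706). *Rtl1*, which lies between *Dlk1* and *Dio3*, had 0.169 CPM or less in every library.

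**Figure D3:**
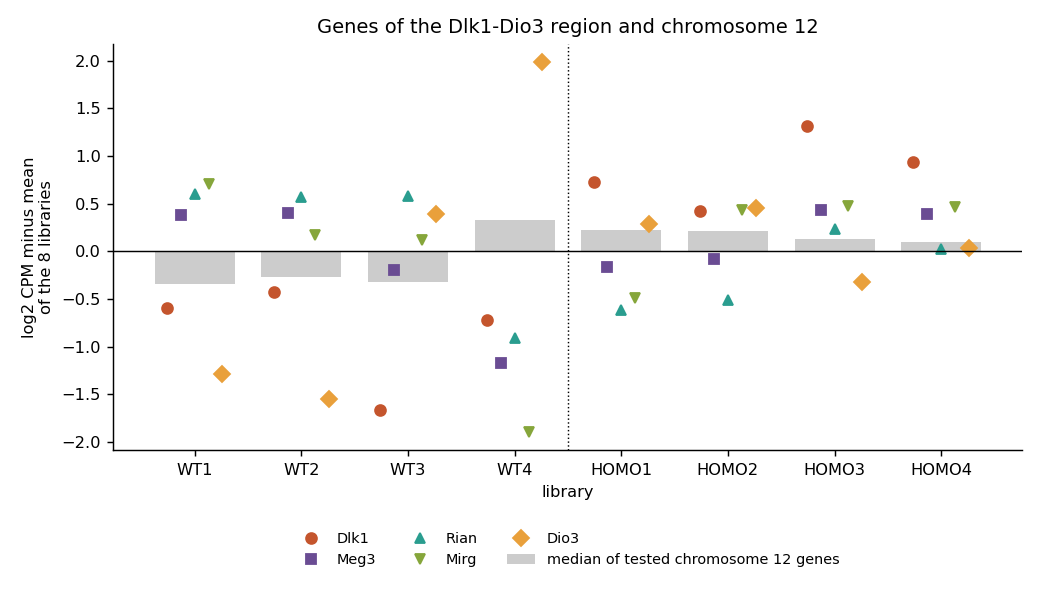
Log2 CPM of 5 genes of the *Dlk1*-*Dio3* region in each library, as the deviation from the mean of the 8 libraries, with bars for the median deviation of the 501 tested genes of chromosome 12. In WT4 the bar (0.33) and *Dio3* (1.98) are above 0, while *Dlk1*, *Meg3*, *Rian* and *Mirg* (−0.72, −1.17, −0.91 and −1.89) are below it. *Dlk1* is below 0 in all 4 WT libraries and above 0 in all 4 HOMO libraries.

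Within each genotype the genes separated the libraries along the same lines as the close pairs. HOMO1 and HOMO2 were below HOMO3 and HOMO4 for 9 of the 10 genes, *Mest* being the exception. The same order without overlap was found for 37.2% of all tested genes, and these pairs varied genome-wide. WT3 was the highest library for *Peg3*, *Mest*, *Plagl1*, *Ndn* and *Snrpn*, and the lowest for *Dlk1*. *Peg3*, *Ndn* and *Snrpn* lie on chromosome 7, whose 1045 tested genes were also shifted up in WT3. Their median log2 deviation from the mean of the 8 libraries was 0.385 there and −0.173 to 0.053 in the other libraries. Above that median, *Peg3*, *Ndn* and *Snrpn* still stood 0.44, 1.62 and 1.64 higher in WT3. WT3 also held the highest sums of macrophage and leukocyte markers (1910.5 CPM) and of smooth muscle and pericyte markers (2707.5 CPM), whose part in these values was not tested. Over the 8 libraries, log2 CPM of *Ndn* and *Snrpn* were correlated with r = 0.945 (0.963 without WT3), *Plagl1* and *Ndn* with r = 0.958 (0.894), and *Peg3* and *Plagl1* with r = 0.947 (0.904). *H19* and *Rian* had r = 0.816 (0.806). *Dlk1* ran against *Snrpn* (r = −0.841, −0.698 without WT3). Both genes were called between the genotypes, in opposite directions, so this r in part repeats that difference. The r values describe libraries that include 3 close pairs and chromosome-wide shifts, so no p is given.

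**Figure D4:**
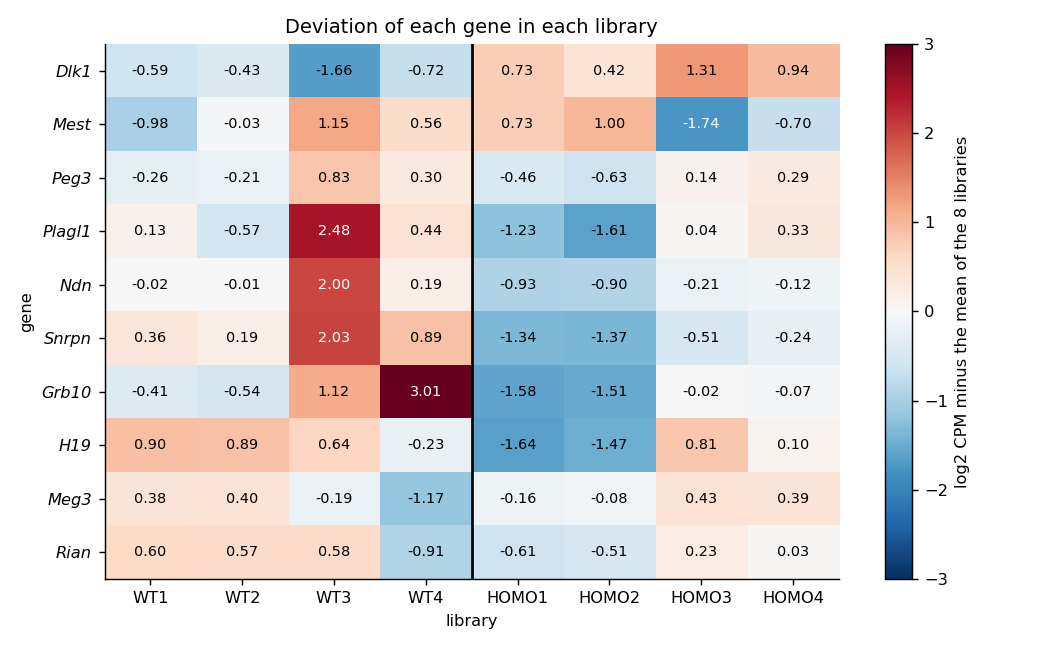
Log2 CPM of the 10 genes in each library as the deviation from the mean of the 8 libraries, in red above and in blue below that mean, with a line between WT and HOMO. WT3 holds the highest values of *Plagl1* (2.48), *Snrpn* (2.03) and *Ndn* (2), WT4 that of *Grb10* (3.01), and HOMO1 and HOMO2 are low for *H19* (−1.64 and −1.47).

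Further imprinted genes were counted to set the 10 genes beside others of their kind. Of 55 listed, 54 were in the table and 36 were tested, and 7 were called as DEGs (19.4% against 12.1% of all tested genes), 5 up and 2 down. Between genotypes, 10 of the 36 did not overlap (27.8% against 27.3%). The median log2FC of the 36 was −0.25.

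Of the 7 called genes, 5 lay outside the regions of the 10 genes. *Ppp1r9a*, which encodes the actin-binding protein neurabin, and *Asb4*, a part of ubiquitin ligases, lie beside *Peg10* and *Sgce* on chromosome 6. *Ppp1r9a* rose from 3.27 to 6.81 CPM in WT to 30.3 to 61.6 CPM in HOMO (log2FC 3.04, SE 0.33, adjusted p = 0.00202 by edgeR). *Asb4* rose from 0.129 to 1.09 CPM to 3.34 to 6.39 CPM (log2FC 3.40, SE 0.63, adjusted p = 0.0132 by edgeR), and the log2FC was 4.32 without WT3 (edgeR adjusted p = 0.00190). WT1 to WT4 had only 5, 3, 19 and 7 counts of *Asb4*, against 75 to 126 in HOMO, so the size of its fold change is uncertain. *Peg10* and *Sgce* themselves were not called, with log2FCs of 0.05 (edgeR adjusted p = 0.956) and −0.53 (0.152).

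*Airn*, the paternally expressed noncoding RNA that silences *Igf2r* in mice, was at 0.619, 0.686, 1.84 and 0.697 CPM in WT1 to WT4 and at 9.01, 8.62, 4.11 and 5.31 CPM in HOMO1 to HOMO4. Every HOMO library was above every WT library (log2FC 2.82, SE 0.46, adjusted p = 0.00855 by edgeR). *Sfmbt2*, a Polycomb protein, rose to 8.36 to 11.6 CPM in HOMO from 1.15 to 2.36 CPM in WT (log2FC 2.44, edgeR adjusted p = 0.00260). *Gab1*, an adaptor of receptor tyrosine kinases, rose to 107.2 to 146.1 CPM from 39.3 to 47.8 CPM (log2FC 1.60, edgeR adjusted p = 0.00111). *Gab1* lies on chromosome 8, whose tested genes had a median log2FC of 0.38, and with the chromosome offset it stood at 1.20 (edgeR adjusted p = 0.00220).

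The downregulated genes, *Cd81* and *Tssc4*, are neighbours on chromosome 7, in the imprinted cluster next to *H19* and *Igf2*. *Cd81*, a tetraspanin of the cell surface, fell from 444.1 to 824.7 CPM in WT to 241.3 to 271.7 CPM in HOMO (log2FC −1.27, SE 0.21, adjusted p = 0.00944 by edgeR). *Tssc4* fell from 30.2 to 57.4 CPM to 11.8 to 15.9 CPM (log2FC −1.57, SE 0.23, adjusted p = 0.00576 by edgeR), and 11.9% of its exon bases are shared with *Trpm5* on the other strand. The tested genes of chromosome 7 had a median log2FC of −0.29. With the chromosome offset, *Cd81* stood at −1.025 (edgeR adjusted p = 0.0109) and *Tssc4* at −1.324 (edgeR adjusted p = 0.00319). *Cd81*, *Tssc4*, *Sfmbt2* and *Gab1* are known to be imprinted mainly in the placenta and its precursors.

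*Cdkn1c*, the growth-restraining gene of the same chromosome 7 cluster, did not pass the filter. It was at 9.81 CPM in WT3 and at 0.194 to 1.15 CPM in the other 7 libraries. *Nnat* (2.01 to 7.86 CPM in WT, 1.15 to 1.75 in HOMO) did not overlap between genotypes and was not called (log2FC −1.28, edgeR adjusted p = 0.109). *Gnas* changed by −0.32 (edgeR adjusted p = 0.115), and *Usp29*, beside *Peg3*, was at 1.61 CPM or less and outside the test.

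**Figure D5:**
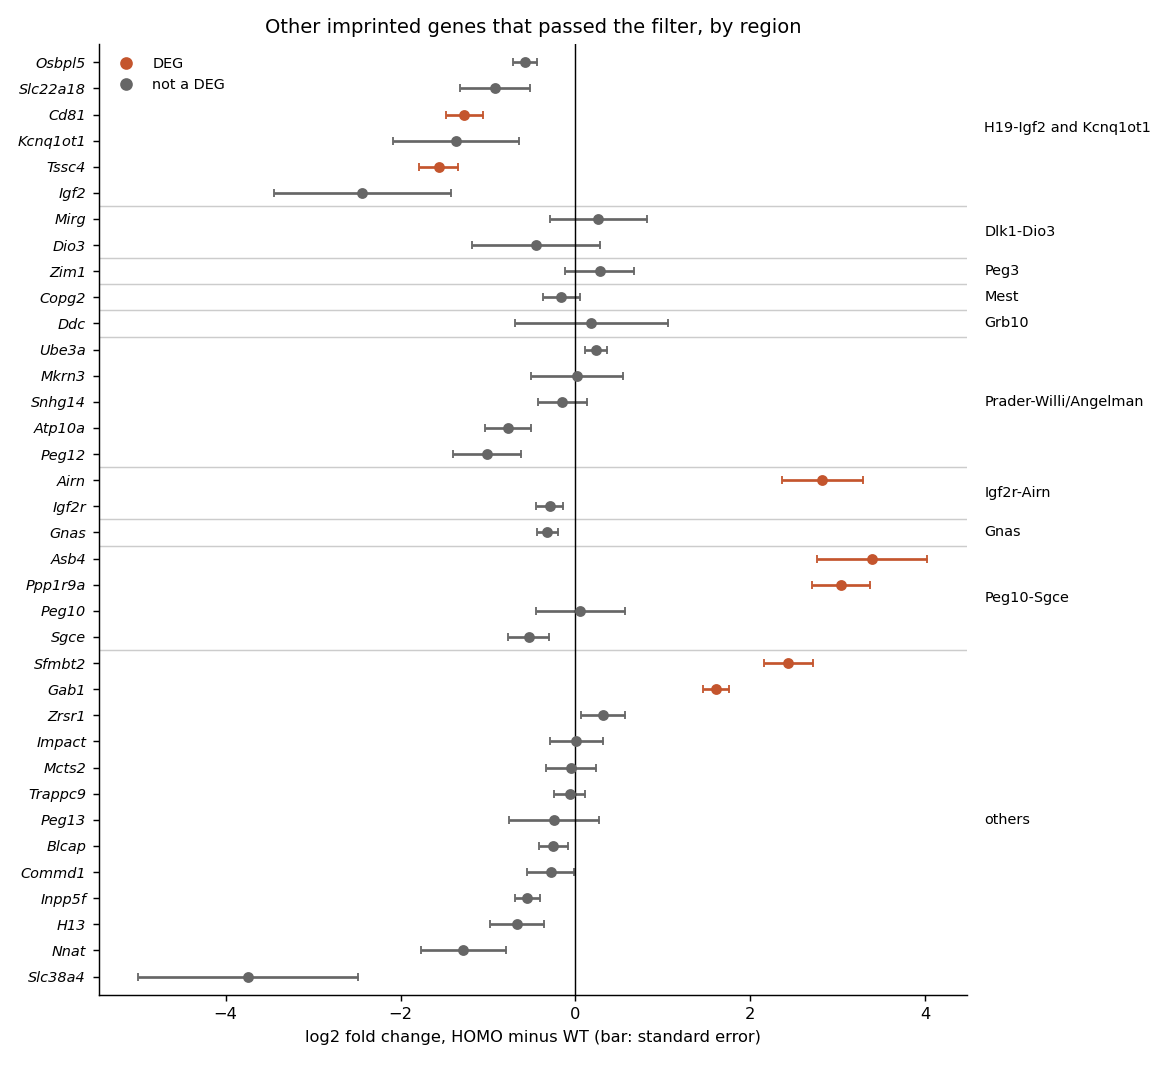
Log2FC (HOMO minus WT) with its standard error for the 36 other imprinted genes that passed the filter, grouped by region, with DEGs in orange and the rest in grey. *Asb4* (3.40), *Ppp1r9a* (3.04) and *Airn* (2.82) lie farthest to the right, while *Peg10* (0.05), *Sgce* (−0.53) and *Igf2r* (−0.30) of the same regions are not DEGs.

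DESeq2, the tool of the study, called 4 of the 10 genes, *Dlk1*, *Grb10*, *Ndn* and *Snrpn*, against 16.5% of the genes it tested. Limma-voom also called 4, but these were *Dlk1*, *Snrpn*, *H19* and *Rian*, against 25.3% of the genes it tested. In it, *Grb10* was at −0.11 (adjusted p = 0.831) and *Ndn* at −0.43 (0.0846). *Dlk1* and *Snrpn* were thus the genes called by all 3 tools. With the counts of each close pair summed, which left 3 WT and 2 HOMO units, edgeR called 0 of the 10 genes and 0 of 16130 tested genes, with 2 and 2057 at an unadjusted p under 0.05, and the log2FCs of *Dlk1* and *Snrpn* were 1.80 (edgeR adjusted p = 0.328) and −2.03 (0.347).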

How the data were processed

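RNAseq of pFBs gave 4 WT and 4 HOMO libraries, grouped by the genotype in their labels. The authors deposited raw counts per gene, made with fastp (trimming), STAR (alignment to mm10) and featureCounts. Versions and the strand setting are not given in the sources used here. The label of the table says "outlierout", and no source used here says what was removed.

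The 10 genes and all lists were chosen with earlier results of these data known. Counts were compared with R 4.3.3 and edgeR 4.0.16 (TMM, filterByExpr by genotype, two-sided quasi-likelihood F test, Benjamini-Hochberg over 14150 genes), and DEGs followed the thresholds of the study, 0.05 for the adjusted p and 0.6 for the log2 fold change in either direction. Log2 CPM had a prior count of 2. Positions, exon lengths and overlaps came from GENCODE M21. Alternatives were DESeq2 1.42.0, limma 3.58.1 (voom with sample weights), other normalizations, filters and dispersion, no fold threshold, a replicate block, a chromosome offset per library (chromosomes with at least 20 tested genes), summed close pairs, and leaving out each library. Leaving out WT3 and WT4 together was added after seeing the data.

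All 10 genes were named, with every called gene of 55 further imprinted genes and 15 fixed members of that list, mouse *Igfbp5*, and the 5 genes most like the most variable of the 10. *Gm38393*, *Snurf*, *Gm18908*, *Snrpb*, *Gm49394*, *Trpm5*, *Lyz2*, *Cdh1*, *Wt1*, *Pdgfrb*, *Vim* and *Rgs5* were named after their values or overlaps were seen. So were *Peg12*, *Atp10a*, *Ube3a* and *Mkrn3*. The test of 1 other marker is not reported here. Scripts were tested on simulated data. Python 3.11.15 with pandas 2.3.3 and matplotlib 3.10.9 was used for tables and plots.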

Additional observations from a re-analysis of the deposited data

Results flagged for a closer look

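In 3 of 36 groups of 4 libraries, 1 library lay far from the other 3 by Dixon's test. Chance alone gives about 1 in 20 for independent values, which the close pairs may not be, so nothing is drawn from the number of flags. *Rian* was at 3.61 log2 CPM in WT4, against 5.10 to 5.12 in WT1 to WT3. *Ndn* was at 7.61 log2 CPM in WT3, against 5.60 to 5.81 in the other WT libraries. *Airn* was at 0.95 log2 CPM in WT3, against −0.50 to −0.35 in the other WT libraries. WT3 and WT4 are also the libraries with the highest sums of macrophage and leukocyte markers (1910.5 and 1111.7 CPM), and the part of these in the 3 values was not tested.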

How the results depend on the processing

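Of 190 fold changes of the 10 genes under alternatives, 165 kept direction and side of the threshold. The number of the 10 genes called was 2, and it was 4 in DESeq2 (*Dlk1*, *Grb10*, *Ndn*, *Snrpn*), 4 in limma-voom (*Dlk1*, *Snrpn*, *H19*, *Rian*), 1 without WT3 and WT4, 0 with close pairs summed and 0 to 2 with 1 library left out (1 without WT4, HOMO2 or HOMO4, and 0 without HOMO1 or HOMO3, where 2 and 5 had an unadjusted p under 0.05). Of the 36 other imprinted genes 7 were called, and 17 in limma-voom, 14 of 38 without WT3 and WT4, 0 with close pairs summed, and 7 to 9 with 1 library left out. Over all genes, edgeR called 1716, DESeq2 2913, limma-voom 3573 and the fits without 1 library 507 to 2192. The fit without WT3 and WT4 called 3117 of 14912, so calls also rose there over all genes. The log2 fold change changed sign for *Meg3* (−0.14 in limma-voom, −0.21 with the chromosome offset, −0.22 without WT3 and WT4, −0.053 to 0.36 with 1 library left out), for *Peg3* (0.16 in limma-voom, 0.12 without WT3 and WT4) and for *Mest* (0.65 without WT3 and WT4, −0.60 to 0.22 with 1 library left out and above 0 without WT3, HOMO3 or HOMO4); the cause was not tested. With the replicate block, 1 of the 10 genes and 947 of all genes were called. Same-numbered libraries did not deviate together (r = −0.0910, −0.0424, 0.0141 and −0.124 for numbers 1 to 4). These r gave no sign of pairing by number. They cannot decide it, since libraries of a genotype differed widely and a small shared part could be hidden. No member was outside the test, so the permutation test fixed for that case gave no value. Depth limits *H19* most, with 4 to 34 counts a library.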
